A study of Homo sapiens with 6 samples.

Results

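IGFBP1 to IGFBP7 encode the 6 classical insulin-like growth factor (IGF)-binding proteins and the related IGFBP7, and all 7 were looked up by Ensembl identifier among the 20461 genes of an RNA-seq table of PANC1 cells, a human pancreatic carcinoma cell line. The cells grew in medium with serum and received either 50 nM gemcitabine, a deoxycytidine analogue that stalls DNA replication, or vehicle alone (0.1% DMSO) over 48 h. RNA-seq was done on 2 biological replicates of each condition, and DNaseI-seq, which maps open chromatin, on 1 library of each. No gene was edited or silenced in these cells, and a single cell line was used. All 7 genes had a row in the table, and 6 had the 10 fragments over the 4 libraries needed for testing. IGFBP1 did not.

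IGF1 and IGF2 are secreted growth factors that act through the receptor tyrosine kinase IGF1R, while IGF2R binds IGF2 and carries it to lysosomes. The classical binding proteins hold IGFs with high affinity outside the cell, which prolongs the life of the ligand and keeps it from the receptor, and proteases that cut a binding protein set the ligand free again. IGFBP7 binds IGFs only weakly. Members of the family also have actions that do not need IGF, and pancreatic carcinoma cells are known to carry IGF1R.

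The libraries held 15153593 and 15766237 fragments on genes for vehicle, and 13194533 and 13275457 for gemcitabine. CPM (counts scaled to a common library size) were taken after TMM normalisation, which takes the bulk of genes as steady. A gene without fragments could hide up to 3 of them by counting error, or 0.19 to 0.227 CPM before TMM. Replicates were further apart than sampling noise: the chi-square for a gene averaged 2.21 in the vehicle pair and 5.4 in the gemcitabine pair. All 4 markers of ductal and carcinoma cells (KRT7, KRT8, KRT18 and KRT19) were at 1 FPKM or more, where FPKM counts fragments relative to transcript length and sequencing depth. Their summed level was 2360 to 2520 FPKM in vehicle and 2550 to 2620 FPKM in gemcitabine. Markers of acinar cells summed to at most 0.0542 FPKM, of hepatocytes to at most 0.152 FPKM and of endothelial cells to at most 0.365 FPKM. Of the 4 leukocyte markers only CD68 reached 1 FPKM, CD3E was at 0 in every library, and the list summed to 10.7 to 10.9 FPKM in vehicle and 20.5 to 24.8 FPKM in gemcitabine. Of the 6 fibroblast markers 4 reached 1 FPKM (COL1A1, COL3A1, DCN and LUM), and PDGFRA had 1 fragment in all. COL1A2 had 0 and 3 fragments in vehicle and 3 and 0 in gemcitabine. The list summed to 1360 to 1460 FPKM in vehicle and 1570 to 1810 FPKM in gemcitabine. Most of it was COL1A1 (mean 866 FPKM in vehicle and 1040 in gemcitabine) and COL3A1 (533 and 633 FPKM). On counts neither of these passed in edgeR (log2 fold change 0.03, adjusted p = 0.739, and 0.11, adjusted p = 0.351). The weaker LUM rose (0.77, adjusted p = 0.00375, edgeR), and DCN did not pass. What part the shifts of these marker sums had in the results was not tested. In RNA from bulk cultures, fewer cells of a type and less RNA per cell cannot be told apart.

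The family is scattered over the genome in single genes and 2 neighbouring pairs. On the GRCh37 (hg19) build, IGFBP1 (chr7:45927959-45933259, plus strand) and IGFBP3 (chr7:45951844-45961473, minus strand) lie 18584 bases apart. IGFBP2 (chr2:217497551-217529159, plus strand) and IGFBP5 (chr2:217536828-217560272, minus strand) lie 7668 bases apart. IGFBP4 (chr17:38599702-38613977, plus strand), IGFBP6 (chr12:53491220-53496129, plus strand) and IGFBP7 (chr4:57896939-57976551, minus strand) have no other member beside them. The main transcripts have 4 exons in IGFBP1, IGFBP2, IGFBP4, IGFBP5 and IGFBP6, and 5 in IGFBP3 and IGFBP7.

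The promoters of IGFBP3, IGFBP4 and IGFBP6, which later passed the test, are shown because they differ in their core letters. Each run goes from 130 bases before to 20 bases from the main transcription start on, 5′ to 3′ on the strand of the gene, read from the GRCh37 genome at the start given by Gencode. Capitals mark TATA on the strand of the gene and GGGCGG, the core of the GC box, on either strand (CCGCCC where it lies on the other strand). Neighbouring matches can overlap.
IGFBP3, chr7:45960852-45961001, minus strand: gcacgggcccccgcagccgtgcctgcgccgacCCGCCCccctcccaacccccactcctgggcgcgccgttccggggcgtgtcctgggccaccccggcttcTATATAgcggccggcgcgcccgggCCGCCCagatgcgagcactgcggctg
IGFBP4, chr17:38599572-38599721, plus strand: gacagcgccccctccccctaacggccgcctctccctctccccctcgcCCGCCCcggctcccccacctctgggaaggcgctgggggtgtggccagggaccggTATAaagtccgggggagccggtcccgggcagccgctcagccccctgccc
IGFBP6, chr12:53491321-53491470, plus strand: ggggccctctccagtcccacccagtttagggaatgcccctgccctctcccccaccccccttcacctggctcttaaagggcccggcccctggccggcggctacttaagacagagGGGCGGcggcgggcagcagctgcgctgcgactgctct

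TATA stood 30 bases before the start of IGFBP3 and 29 bases before that of IGFBP4, and was absent from the window of IGFBP6. Of the other members, IGFBP1 held TATA 28 bases before its start, while IGFBP2 and IGFBP5 held none. Over 18697 promoters of the same length, 13.8% held TATA. The core of the GC box occurred 2 times in the window of IGFBP3, 1 time each in those of IGFBP2, IGFBP4 and IGFBP6, and not in those of IGFBP1 and IGFBP5, against 53.2% of all promoters with at least 1. Over these 6 windows the GC content ran from 54.0% in IGFBP5 to 78.7% in IGFBP3, with a median of 66.0% over all promoters. These matches describe letters only.

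The first question was how much of each gene the cells made. IGFBP4, which binds both IGFs and is the target of the protease PAPPA, was by far the main member. Its level was 1190 and 1080 FPKM in the vehicle libraries and 962 and 1140 FPKM in the gemcitabine libraries. By the mean of the 4 libraries it ranked 92 among all genes of the table. IGFBP4 made up 81.4% and 82.2% of the summed FPKM of the family in vehicle, and 76.3% and 78.0% in gemcitabine.

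IGFBP7, a matrix-bound protein, came next with 135 and 116 FPKM in vehicle and 154 and 170 FPKM in gemcitabine. IGFBP6, which prefers IGF2 as its ligand, had 51.6 and 40.5 FPKM in vehicle and 75.7 and 70.6 FPKM in gemcitabine. IGFBP3, the main carrier of IGF in blood, had 60.5 and 54.9 FPKM in vehicle and 49.1 and 47.3 FPKM in gemcitabine. The vehicle values of IGFBP3 stood above those of IGFBP6 and the gemcitabine values below them, so the order of these neighbours differed between the conditions. In vehicle, however, the gap between the nearest values (54.9 and 51.6 FPKM) was narrower than the spread of the IGFBP6 replicates.

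IGFBP5, which binds to extracellular matrix, had 19.4 and 17.9 FPKM in vehicle and 16.3 and 28.8 FPKM in gemcitabine. IGFBP2, often abundant in tumours, had 4.57 and 3.45 FPKM in vehicle and 4.04 and 4.83 FPKM in gemcitabine. IGFBP1, made mainly by the liver and the decidua, had 1 and 1 fragments in vehicle and 3 and 0 fragments in gemcitabine, no more than a count of 0 allows, so no fold is given. In every library the order ran from IGFBP4 through IGFBP7 to the pair of IGFBP3 and IGFBP6, then IGFBP5, IGFBP2 and IGFBP1, and outside that pair the values of neighbouring genes did not overlap. In gemcitabine the FPKM gap between IGFBP5 and IGFBP2 was no wider than the spread of the IGFBP5 replicates. The whole family took 0.285% and 0.265% of all fragments in vehicle and 0.242% and 0.283% in gemcitabine, ranges that overlapped.

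**Figure D1:**
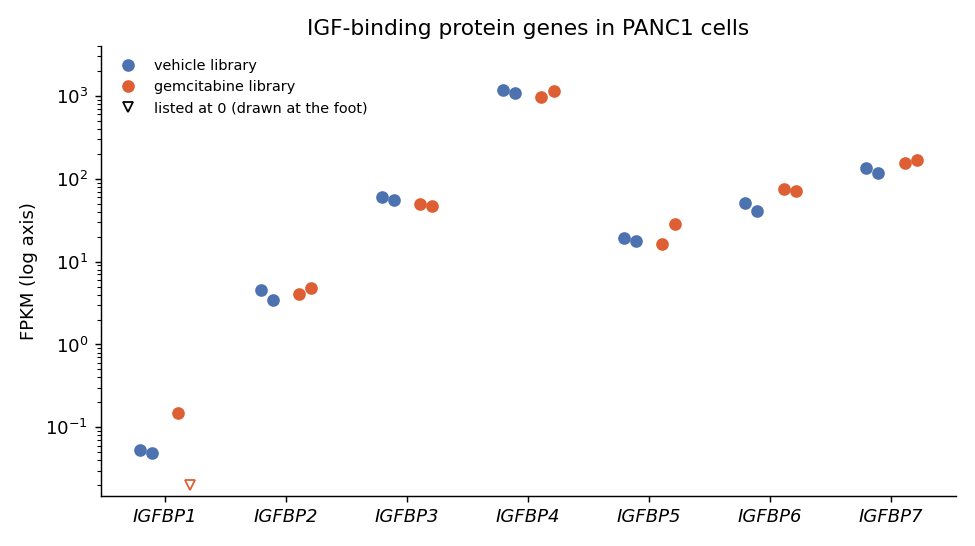
FPKM of the 7 IGF-binding protein genes (log axis) in each of the 2 vehicle and 2 gemcitabine libraries, 1 point a library. IGFBP4 stood near 1000 FPKM in all 4 libraries, IGFBP1 at or under 0.15 FPKM, and the conditions separated for IGFBP3, IGFBP6 and IGFBP7. In CPM the conditions separated for 69.7% of all genes tested, and the share in FPKM was not taken.

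The second question was which members changed with gemcitabine. IGFBP6 and IGFBP7 rose and IGFBP3 and IGFBP4 fell, while IGFBP2 and IGFBP5 did not pass the test. The changes were small: IGFBP4 fell by 14.9%, IGFBP3 fell by 21.9%, IGFBP7 rose by 19.3% and IGFBP6 rose by 41.1%. By edgeR's quasi-likelihood test on fragment counts with Benjamini-Hochberg adjustment over 14854 genes, 4 of the 6 tested members passed an adjusted p of 0.05, against 38.5% of all genes. In the upward direction 2 members passed, against 18.5% of all genes, and in the downward direction 2, against 20.0%. None of the 6 (0) met in edgeR the further criteria of a fold over 1.5, a mean of at least 0.1 FPKM in 1 condition and a difference of at least 1 FPKM, which 10.1% of all genes met (5.69% higher and 4.42% lower). The number at an unadjusted p under 0.05 in edgeR was 4, against 7018 of the 14854 genes. DESeq2 also gave 0 members past all the criteria, against 1338 of all genes. The CPM of the conditions did not overlap for 4 members, against 69.7% of all genes. With so many genes past the test, these shares do not set the family apart.

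IGFBP6 showed the largest change of the members tested. It had 31.4 and 24.6 CPM in vehicle and 39.6 and 39.4 CPM in gemcitabine. Both gemcitabine libraries stood above both vehicle libraries and were nearly equal, whereas the vehicle libraries differed 1.28-fold, more than 92.6% of genes did. The log2 fold change on counts was 0.50 (SE 0.106, 95% interval 0.27 to 0.72, adjusted p = 0.002, edgeR). The FPKM means were 46.1 ± 7.89 and 73.2 ± 3.61 (SD, n = 2), a ratio of 1.59. FPKM as a whole were shifted upwards in gemcitabine, with a median log2 ratio of 0.11 over 11971 genes with at least 1 FPKM, against -0.02 for the fitted log2 fold changes of the same genes. Without vehicle replicate 2 the log2 fold change was 0.34 (adjusted p = 0.0833, edgeR), and without vehicle replicate 1 it was 0.69 (adjusted p = 0.00915) and met all the criteria. The study lists IGFBP6 as a hit of a published siRNA screen for gemcitabine sensitivity that also changed expression in these samples. That call used Cuffdiff with the same thresholds, whereas in edgeR the gene did not meet all of them. As the samples are the same, the direction of IGFBP6 here is not independent evidence.

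IGFBP7 had 185 and 167 CPM in vehicle and 200 and 220 CPM in gemcitabine. The conditions did not overlap, but the gap between the nearest libraries was no wider than the distance between the replicates. The log2 fold change was 0.25 (SE 0.0745, 95% interval 0.09 to 0.41, adjusted p = 0.0144, edgeR), a rise of 19.3%. Without vehicle replicate 1 it was 0.34 (adjusted p = 0.0555) and without vehicle replicate 2 it was 0.19 (adjusted p = 0.234, edgeR). The gene shares 386 bases with POLR2B and 624 bases with IGFBP7-AS1 on the opposite strand, and the library kit does not mark strand, so reads there cannot be told apart.

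IGFBP3 had 145 and 137 CPM in vehicle and 112 and 107 CPM in gemcitabine. Both gemcitabine libraries lay below both vehicle libraries, and replicates were close. The log2 fold change was -0.36 (SE 0.0678, 95% interval -0.50 to -0.21, adjusted p = 0.000813, edgeR), and expression fell by 21.9%. Without vehicle replicate 1 the value was -0.31 (adjusted p = 0.0576, edgeR).

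IGFBP4 had 2480 and 2300 CPM in vehicle and 1840 and 2220 CPM in gemcitabine. The gemcitabine libraries were lower, but replicate 2 lay close to the vehicle range, and in FPKM the conditions overlapped. The log2 fold change was -0.23 (SE 0.0841, 95% interval -0.41 to -0.05, adjusted p = 0.0401, edgeR). The call was lost in 9 of 12 alternative analyses, among them DESeq2 (adjusted p = 0.25), scaling by library totals (-0.12, adjusted p = 0.205) and the fits without vehicle replicate 1 (-0.17, adjusted p = 0.399), vehicle replicate 2 (-0.28, adjusted p = 0.178) or gemcitabine replicate 1 (-0.10, adjusted p = 0.122).

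IGFBP5 was the member on which the gemcitabine replicates disagreed. It had 129 and 119 CPM in vehicle, and 102 CPM in gemcitabine replicate 1 against 162 CPM in replicate 2. One gemcitabine library was thus below both vehicle libraries and the other above both. The gemcitabine replicates differed 1.58-fold, more than in 97.0% of genes. The log2 fold change was 0.09 (SE 0.14, 95% interval -0.21 to 0.39, adjusted p = 0.643, edgeR). It was 0.39 without gemcitabine replicate 1 (adjusted p = 2.35e-08) and -0.27 without gemcitabine replicate 2 (adjusted p = 0.000294, edgeR), where the lone library is assumed to vary like the vehicle pair. IGFBP5 shares 1146 bases with DIRC3-AS1 on the opposite strand.

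IGFBP2, the neighbour of IGFBP5, had 82 and 63 fragments in vehicle and 65 and 71 fragments in gemcitabine. The conditions overlapped, and the vehicle libraries differed 1.36-fold in CPM, more than in 94.9% of genes. The log2 fold change was 0.02 (SE 0.218, 95% interval -0.45 to 0.49, adjusted p = 0.951, edgeR), so changes within that interval are not excluded.

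**Figure D2:**
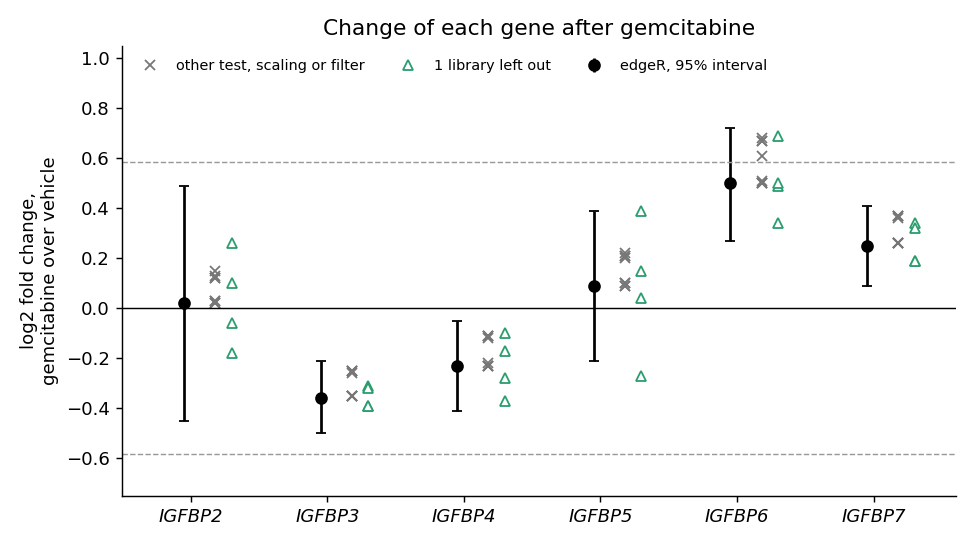
Log2 fold change (gemcitabine over vehicle) of the 6 tested genes by edgeR with its 95% interval (black), under another test, scaling or filter (crosses) and with 1 library left out (triangles). Dashed lines mark a 1.5-fold change. IGFBP3 and IGFBP4 stayed below 0 and IGFBP6 and IGFBP7 above it in every alternative drawn, while IGFBP2 and IGFBP5 lay on both sides.

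Ratios between members of the same library do not depend on how libraries are scaled. The pairs were chosen after the values had been seen and carry no test. For every 100 fragments of IGFBP3 there were 21.8 and 18.0 fragments of IGFBP6 in vehicle, and 35.3 and 36.8 in gemcitabine. The mean ratio was thus 1.81 times higher after gemcitabine. IGFBP7 stood at 128 and 122 fragments per 100 of IGFBP3 in vehicle and at 178 and 205 in gemcitabine, 1.53 times higher in the mean. Against IGFBP4, IGFBP7 had 7.48 and 7.27 fragments per 100 in vehicle and 10.9 and 9.91 in gemcitabine. The conditions did not overlap in any of these ratios. That had to follow, because CPM of the first gene were higher and those of the second lower in both gemcitabine libraries. Between the genes that fell, IGFBP3 had 5.83 and 5.95 fragments per 100 of IGFBP4 in vehicle and 6.1 and 4.82 in gemcitabine, where the conditions overlapped. Between the genes that rose, IGFBP6 had 17.0 and 14.8 fragments per 100 of IGFBP7 in vehicle and 19.8 and 17.9 in gemcitabine.

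**Figure D3:**
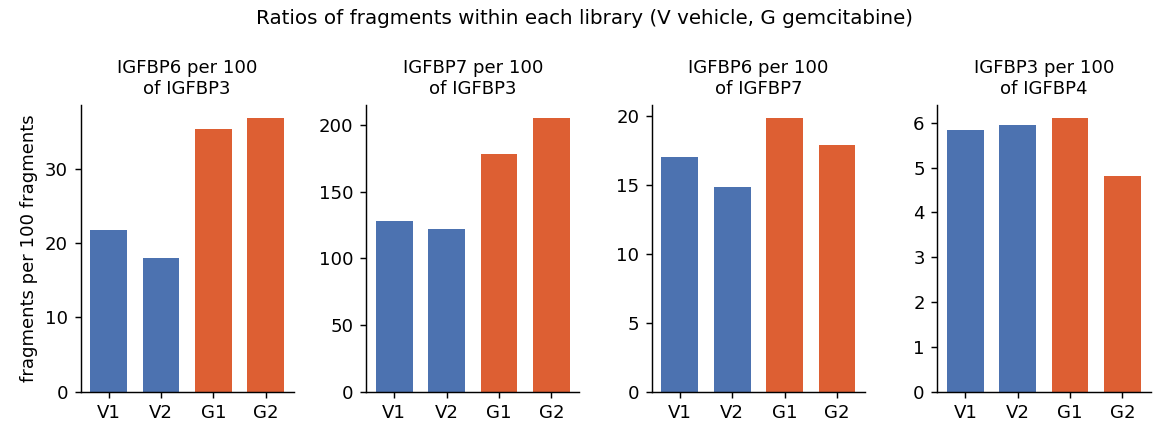
Fragments of a gene per 100 fragments of another in each library (V1 and V2 vehicle, G1 and G2 gemcitabine; bars start at 0). IGFBP6 and IGFBP7 rose against IGFBP3 in both gemcitabine libraries, to 35.3 and 36.8 and to 178 and 205, while IGFBP3 against IGFBP4 was 6.1 in one gemcitabine library and 4.82 in the other.

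The DNaseI lists asked whether open chromatin was called near these genes. They held 9606 peaks for vehicle and 10695 for gemcitabine, each from 1 library, so no difference between them was tested. None of the 7 members (0) had a peak within 5 kb of its main start in either list. Of all annotated genes in the table, 22.1% had one in vehicle and 25.6% in gemcitabine, and of those with at least 100 FPKM 47.5% and 51.2%. IGFBP4 and IGFBP7 belong to this last class and had none. An absent call says only that no peak reached the threshold of these lists.

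The nearest peaks lay farther out. IGFBP7 had a peak 8.4 kb upstream of its main start in both lists. IGFBP6 had one 17.8 kb upstream in both lists, which covered the start of SPRYD3, and IGFBP4 one 24.7 kb upstream in vehicle, also found in gemcitabine, which covered the start of TOP2A. A gemcitabine-only peak stood nearer to IGFBP4, at 19.9 kb upstream. IGFBP2 had a peak 35.7 kb upstream in both lists. A peak inside IGFBP5, 12.9 kb from its start, was listed for vehicle only, and the peak nearest to IGFBP3, 56.5 kb upstream, for gemcitabine only. No peak was listed within 50 kb of IGFBP1.

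In IGFBP7 a further peak lay in an intron of the main transcript, over the start of a shorter annotated transcript of the gene. It spanned chr4:57931241-57932051 in vehicle with a score of 57.27, and chr4:57930433-57932295 in gemcitabine with a score of 74.33. Each score is a transformed p-value from 1 library, and scores were not compared between the lists. The 300 bases at the centre of the shared part, on the plus strand of GRCh37, are shown because they hold TGANTCA, a pattern that takes in the AP-1 site, at 2 places (capitals, searched on both strands). Of the vehicle peaks, 22.9% held it in a window of this length about the midpoint, and of the gemcitabine peaks 19.3%. Of the windows of the 6 shared peaks near the family, the other 5 held no match.
IGFBP7 intron peak, chr4:57931497-57931796, plus strand: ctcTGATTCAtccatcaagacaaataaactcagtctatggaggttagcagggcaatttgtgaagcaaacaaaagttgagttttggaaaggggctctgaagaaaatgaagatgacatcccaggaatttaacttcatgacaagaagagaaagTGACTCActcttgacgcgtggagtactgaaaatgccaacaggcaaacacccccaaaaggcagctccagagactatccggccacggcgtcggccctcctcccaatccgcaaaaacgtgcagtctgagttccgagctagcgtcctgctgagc

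**Figure D4:**
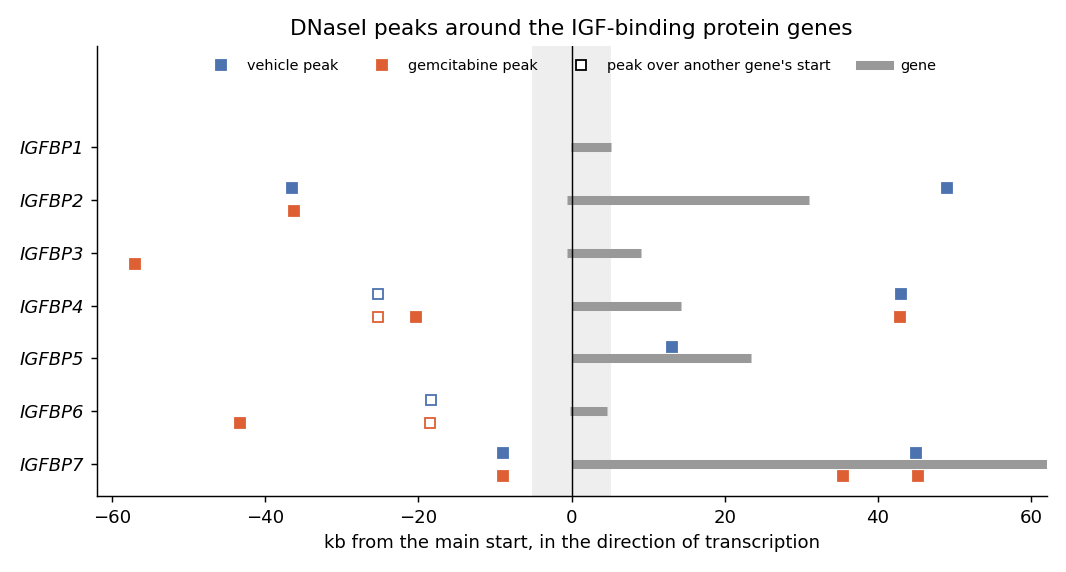
Midpoints of DNaseI peaks around each gene by distance in kb from its main start, in the direction of transcription (blue vehicle, orange gemcitabine, open symbols where the peak covers the main start of another protein-coding gene). The shaded band is 5 kb on each side and holds no peak for any of the 7 genes. The peak at 48.7 kb from IGFBP2 is the peak inside IGFBP5.

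The wider IGF pathway was then described from gene lists, whose counts of calls stand against 18.5% of all genes higher and 20.0% lower. Of the genes named below that passed in edgeR, IGF1R, IRS2, SHC1, PTPN1, CCN2 and CCN5 also passed with limma on log2(FPKM + 1), and the others did not. Leaving out a vehicle library also left far fewer of all genes past the adjusted p, so calls lost that way are not particular to the genes named. Of the 6 tested ligands, receptors and carriers, 2 rose and 3 fell, with a median log2 fold change of 0.04 against 0.01 over all genes. IGF1 rose, with 72 and 70 fragments in vehicle and 116 and 166 in gemcitabine (log2 fold change 1.10, SE 0.201, adjusted p = 0.000604, edgeR). On FPKM with limma the value for IGF1 was 0.97 (adjusted p = 0.0982). IGF2 had 4 and 3 fragments in vehicle and 2 and 6 in gemcitabine (adjusted p = 0.798, edgeR) and shares its locus with a readthrough gene, and INS had 0 fragments throughout. IGFALS, a partner in the complex of IGF and IGFBP3 in blood, had 1 fragment in all.

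Of the receptors, IGF1R, IGF2R and INSR fell in edgeR, and only the weakly expressed INSRR rose. IGF1R fell from 4393 and 4968 fragments in vehicle to 3320 and 3071 in gemcitabine (log2 fold change -0.44, SE 0.0691, adjusted p = 0.000193, edgeR). IGF2R had 4541 and 4884 fragments in vehicle and 3733 and 3763 in gemcitabine (log2 fold change -0.22, adjusted p = 0.0163, edgeR), a call that was lost without vehicle replicate 1 (-0.23, adjusted p = 0.136) or vehicle replicate 2 (-0.19, adjusted p = 0.202). INSR, the insulin receptor, had 572 and 558 fragments in vehicle and 349 and 399 in gemcitabine (log2 fold change -0.48, adjusted p = 0.00126, edgeR), but on FPKM with limma its direction turned to 0.19. Without vehicle replicate 1 its adjusted p was 0.0608. INSRR, named after its values were seen, rose from 12 and 14 to 50 and 41 fragments and stayed under 1 FPKM.

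Among substrates and adaptors of the receptors, 5 of 10 tested genes fell and 2 rose, and the median log2 fold change was -0.19. IRS2, a docking protein for the receptors, fell from 1890 and 1981 fragments in vehicle to 889 and 1006 in gemcitabine (log2 fold change -0.92, SE 0.0756, adjusted p = 6.61e-07, edgeR). GRB14, an adaptor that inhibits receptor signalling, fell by 0.79 on the log2 scale, a call lost without vehicle replicate 2 (-0.61, adjusted p = 0.141, edgeR). With limma GRB14 was at -0.68 (adjusted p = 0.169). GRB10, of the same family, fell by 0.40, but was at -0.29 with limma (adjusted p = 0.126), and the phosphatase PTPN11 fell by 0.39, which was lost without vehicle replicate 2 (-0.32, adjusted p = 0.0948, edgeR). IRS1 was the remaining gene that fell, at -0.28, and SHC1 and PTPN1 rose by 0.25 and 0.31, all named after their values were seen. The calls of IRS1, PTPN1 and SHC1 were lost without vehicle replicate 1 (-0.31, 0.32 and 0.28) or vehicle replicate 2 (-0.24, 0.32 and 0.23), and that of IRS1 also without gemcitabine replicate 1 (-0.14).

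In the PI3K and AKT branch 16 of 22 genes did not pass, 4 fell and 2 rose, with a median of -0.02. PIK3CD, a catalytic subunit of PI3K, rose by 0.70 (adjusted p = 0.0033, edgeR), but by 0.55 without vehicle replicate 2 (adjusted p = 0.0989). PIK3R3, a regulatory subunit, rose by 0.38 and the transcription factor FOXO4 fell by 0.41. The call of PIK3R3 was lost without vehicle replicate 1 (0.36) or vehicle replicate 2 (0.42), and that of FOXO4 without vehicle replicate 1 (-0.33), vehicle replicate 2 (-0.46) or gemcitabine replicate 1 (-0.29). RPS6KB1, a kinase downstream of mTOR, fell by 0.44 on counts and turned to 0.07 on FPKM with limma. GSK3A, named after its values were seen, fell by 0.26, a call lost without vehicle replicate 1 (-0.19) or vehicle replicate 2 (-0.31).

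Of 8 tested proteases of the binding proteins and inhibitors of those proteases, 2 fell and 0 rose in edgeR, with a median of -0.06. PAPPA, which cuts IGFBP4, had 1588 and 1618 fragments in vehicle and 995 and 1128 in gemcitabine (log2 fold change -0.48, SE 0.0766, adjusted p = 0.000201, edgeR), and on FPKM with limma -0.15 (adjusted p = 0.58). STC2, an inhibitor of PAPPA, had 992 and 1005 fragments in vehicle and 703 and 726 in gemcitabine (log2 fold change -0.37, adjusted p = 0.00122, edgeR), and missed the threshold without vehicle replicate 1 (-0.34, adjusted p = 0.0526). On FPKM with limma STC2 was at -0.25 (adjusted p = 0.345), and the FPKM of the conditions overlapped for both PAPPA and STC2.

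Among 10 other tested genes whose proteins carry an IGFBP domain, 2 rose and 0 fell in edgeR, with a median of 0.11. CCN2, a matrix protein also known as connective tissue growth factor, had 5147 and 5420 fragments in vehicle and 8203 and 9285 in gemcitabine (log2 fold change 0.84, SE 0.0753, adjusted p = 1.34e-06, edgeR). CCN5, of the same family, had 176 and 173 fragments in vehicle and 354 and 337 in gemcitabine (log2 fold change 1.10, adjusted p = 3.47e-06, edgeR). In this fit both met all the criteria, and no binding protein did. Of the IGF2 mRNA-binding proteins, which bind RNA and not IGF, IGF2BP1 fell by 0.26 and IGF2BP2 by 0.31, and IGF2BP2 turned to 0.07 on FPKM with limma. Without vehicle replicate 2 both calls were lost (-0.18 and -0.35), and that of IGF2BP2 also without vehicle replicate 1 (-0.25).

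**Figure D5:**
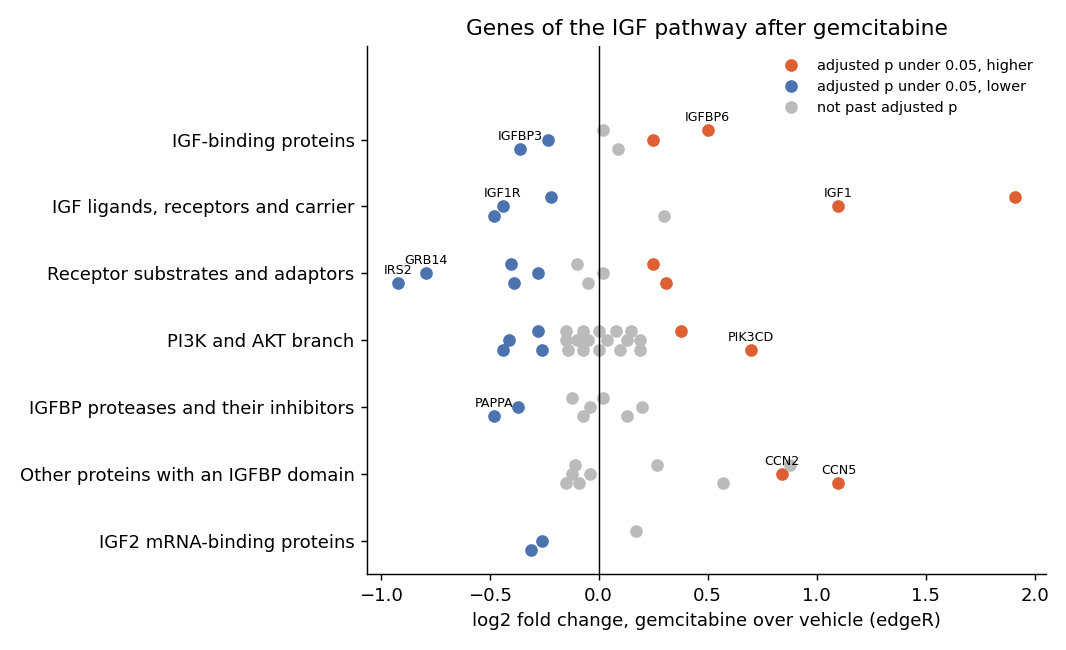
Log2 fold change (gemcitabine over vehicle, edgeR on fragments) of each tested gene in 7 lists, 1 point a gene, in colour where the adjusted p was under 0.05. The binding proteins stayed between -0.36 and 0.50, inside the range set by IRS2 at -0.92 and by IGF1 and CCN5 at 1.10, and the point at 1.91 is INSRR. On FPKM with limma INSR, RPS6KB1 and IGF2BP2 changed sign.

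Finally, each gene that passed the test was set beside the genes with the most similar profile, measured as the Euclidean distance between log2 CPM values centred on the gene, over 4 libraries and 12842 genes. For IGFBP3 these were CCDC167 (0.0213), NIP7 (0.0215) and EMD (0.0231). For IGFBP4 they were CSTF2T (0.00803), NKAP (0.0221) and PMFBP1 (0.0278). IGFBP7 was nearest to TADA3 (0.02), LGMN (0.0228) and QSOX1 (0.0258). IGFBP6 had fewer close genes, with TRIM69 (0.0334), HES6 (0.0404) and C8orf82 (0.0627) first. Within a distance of 0.1 there were 251 genes for IGFBP3, 145 for IGFBP4 and 182 for IGFBP7, but 16 for IGFBP6. With 4 libraries a profile rests on few values, and nothing is drawn from these matches.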

How the data were processed

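RNA-seq reads were aligned by the authors to hg19 with TopHat2 2.0.8 and assigned by Cuffdiff 2.0.2 to protein-coding genes of Gencode V15. The deposited table gives, per gene and library, estimated counts (fragments, fractions where reads map to several places) and the FPKM that the authors obtained from Cuffdiff. The 2 further columns of scaled values were not used. The library index of the table is not linked to the replicate numbers of the labels, and replicate numbers here only tell libraries apart. The authors called DNaseI peaks with MACS at a p-value of 1e-05, and the deposited score is -10 times log10 of the p-value of each peak.

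Estimated counts were rounded, and 14854 genes with at least 10 fragments were tested with edgeR 4.0.16 in R 4.3.3 (TMM, quasi-likelihood, Benjamini-Hochberg). Standard errors were obtained from log2 fold changes and F values. CPM, FPKM and ratios are given per library. Identifiers were matched to symbols for 19619 genes. Starts came from a later Gencode release carried over to hg19, and promoters from GRCh37. Named pathway genes had an adjusted p under 0.05 and a mean of at least 1 FPKM in 1 condition, at most the 4 largest changes a list, plus IGF1, IGF2, IGF1R, IGF2R, INSR and IGFALS. A few items were left out and are not reported here. The tests were checked on simulated counts, with changes larger than any of the binding proteins and the same spread for all genes and both conditions. That check does not cover changes as small as those reported here. Alternatives were DESeq2 1.42.0, other scalings and filters, limma 3.58.1 on log2(FPKM + 1) or log2(FPKM + 0.1), an adjusted p of 0.01 and each library left out. Limits given for counts of 0 cover counting error only. The 95% intervals of fold changes use the t distribution with edgeR's degrees of freedom. Distances of 1 and 50 kb and a score of 100 were tried for peaks. The genes and lists were chosen with earlier results of these data known.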

Additional observations from a re-analysis of the deposited data

How the results depend on the processing

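Over 12 alternatives IGFBP3, IGFBP4, IGFBP6 and IGFBP7 each kept their direction, but calls were lost in 4, 9, 2 and 5 of them, and the cause was not tested. With limma on log2(FPKM + 1), log2(FPKM + 0.1) and log2(FPKM + 1) without a filter, IGFBP3 was at -0.25, -0.26 and -0.25 and IGFBP7 at 0.37 each time and IGFBP4 at -0.11 each time, with none of these past the adjusted p. IGFBP4 also missed the threshold with DESeq2 (-0.23), library totals (-0.12) and no filter on counts (-0.23), and IGFBP6 with limma and no filter (0.67). The members past the adjusted p were 1, 1 and 0 in the same 3 limma fits, with 3 at an unadjusted p under 0.05 in the last. All genes past the adjusted p in these fits were 1868, 1881 and 0. In the last, 4689 genes had an unadjusted p under 0.05 and 0 met all the criteria. With an adjusted p of 0.01 in edgeR, 2 members passed, against 3850 of all genes. IGFBP6 met all the criteria, as 1 member, with library totals and in the first 2 limma fits. There 1582, 1220 and 1260 of all genes met them.

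Leaving out 1 library gave -0.39 to -0.31 for IGFBP3, -0.37 to -0.10 for IGFBP4, 0.34 to 0.69 for IGFBP6, 0.19 to 0.34 for IGFBP7, -0.18 to 0.26 for IGFBP2 and -0.27 to 0.39 for IGFBP5, which turned to -0.27 without gemcitabine replicate 2. It gave 1 to 5 members past the adjusted p (1 without either vehicle library), 0 to 1 past all the criteria, and 2609 to 6656 of all genes past the adjusted p. In the limma fits INSR turned to 0.19, 0.22 and 0.19, RPS6KB1 to 0.07 in each, and IGF2BP2 to 0.07, 0.08 and 0.07. Scaling by library totals moved the median of all genes from 0.01 to 0.12 on the log2 scale. Members with a peak near any annotated start in either list were 1 within 5 kb or 1 kb, 5 within 50 kb and 0 at a score of at least 100. Of all annotated genes in the table, 26.4% had such a peak within 5 kb in vehicle and 30.3% in gemcitabine. No share over all genes was taken at the other limits, so nothing is drawn from those counts. No paired analysis was possible because the library index of the table carries no replicate number of the labels. With 2 libraries a condition, changes well under 1.5-fold rest on the spread shared over all genes.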
